A study of Rattus norvegicus with 6 samples.

Results

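Mitochondrial ribosomal protein genes were taken as all genes on the array whose single platform symbol starts with Mrpl or Mrps. The rule found 97 probe sets of 73 genes, among 31042 probe sets and 14217 genes, and each gene was read from its brightest probe set, by the mean of all 6 arrays. By symbol 46 members belong to the large subunit and 27 to the small subunit. The source was NRK-52E, a rat cell line that stems from kidney tubule epithelium and grows in culture without limit. Every culture was exposed to TGF-β1, a cytokine that drives fibrosis, for 24 h at 10 ng/mL. Lentiviral shRNA against AMPKα2 (shAMPKα2) was delivered in 3 samples and control lentivirus (shCtrl) in 3, and each group consists of biological replicates according to the labels. How many hairpin sequences or clones were used is not given in the labels, and cells without TGF-β1 were not analysed here. The design asks which transcripts differ between the lentiviruses in cells under TGF-β1.

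The mitochondrial ribosome is the machine that translates the few messages of the mitochondrial genome, which encode core subunits of the respiratory chain and ATP synthase. Its RNAs come from the mitochondrial genome, while all of its proteins are encoded in the nucleus, made in the cytosol and imported. Part of these proteins descend from those of bacterial ribosomes, and the rest were added during the evolution of mitochondria. Tubule cells of the kidney depend heavily on oxidative phosphorylation, and AMPK, an energy sensor, is known as a regulator of mitochondrial content.

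The deposited values are on a log2 scale, and every change below is shAMPKα2 minus shCtrl on that scale. The range of values was narrower on the shAMPKα2 arrays, with an SD over probe sets of 1.76 to 1.82 against 2.17 to 2.19 on the shCtrl arrays. Prkaa2, which encodes the targeted AMPKα2, read 6.83, 6.79 and 6.89 on the shCtrl arrays and 6.64, 6.76 and 6.49 on the shAMPKα2 arrays. The groups did not overlap, but the change of -0.21 (SE 0.09) did not pass (limma, adjusted p = 0.0552), and other genes at control levels of 6 to 7 had a median change of 0.19. Below, shAMPKα2 stands for the arrays with that label. Of the markers of tubule epithelium, the keratin gene Krt8 was high, at 12.49 on the shCtrl arrays. The epithelial adhesion gene Epcam, at 2.97, and the cadherin gene Cdh1, at 4.31, were near the bottom of the range. Of the 7 epithelial markers 5 rose and 1 fell, and their median level was 4.68 to 4.86 on the shCtrl arrays and 4.76 to 4.94 on the shAMPKα2 arrays. Markers of fibroblasts (5 of 5 rose), leukocytes (4 of 4) and endothelium (2 of 3) had median levels of 4.33 to 5.03 on the shCtrl arrays and of 5.08 to 5.82 on the shAMPKα2 arrays. Genes at control levels of 4 to 5 rose in 89.9% of cases. The part of other cell types in the results was not tested, and in bulk RNA fewer cells of a type and less RNA per cell cannot be told apart.

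As deposited, most members were lower on the shAMPKα2 arrays. Of the 73 members 55 fell, 4 rose and 14 did not pass (limma, adjusted p under 0.05 over all genes). Of all genes 85.1% passed in the same fit, and 41.5% fell and 43.6% rose. The median change over the members was -0.51, against 0.05 over all genes. For 57 members each shAMPKα2 array lay below each shCtrl array, as it did for 42.5% of all genes, and for 4 members each lay above, against 44.5%. The median level of the members was 9.01, 8.98 and 9.02 on the shCtrl arrays and 8.43, 8.49 and 8.21 on the shAMPKα2 arrays. The third shAMPKα2 array gave the lowest of the 3 values of its group in 65 of 73 members (89.0%), against 64.7% of 6581 other genes at control levels of 7 to 11. Without it the median change was -0.40, and 53 of the 55 members that fell still did.

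**Figure D1:**
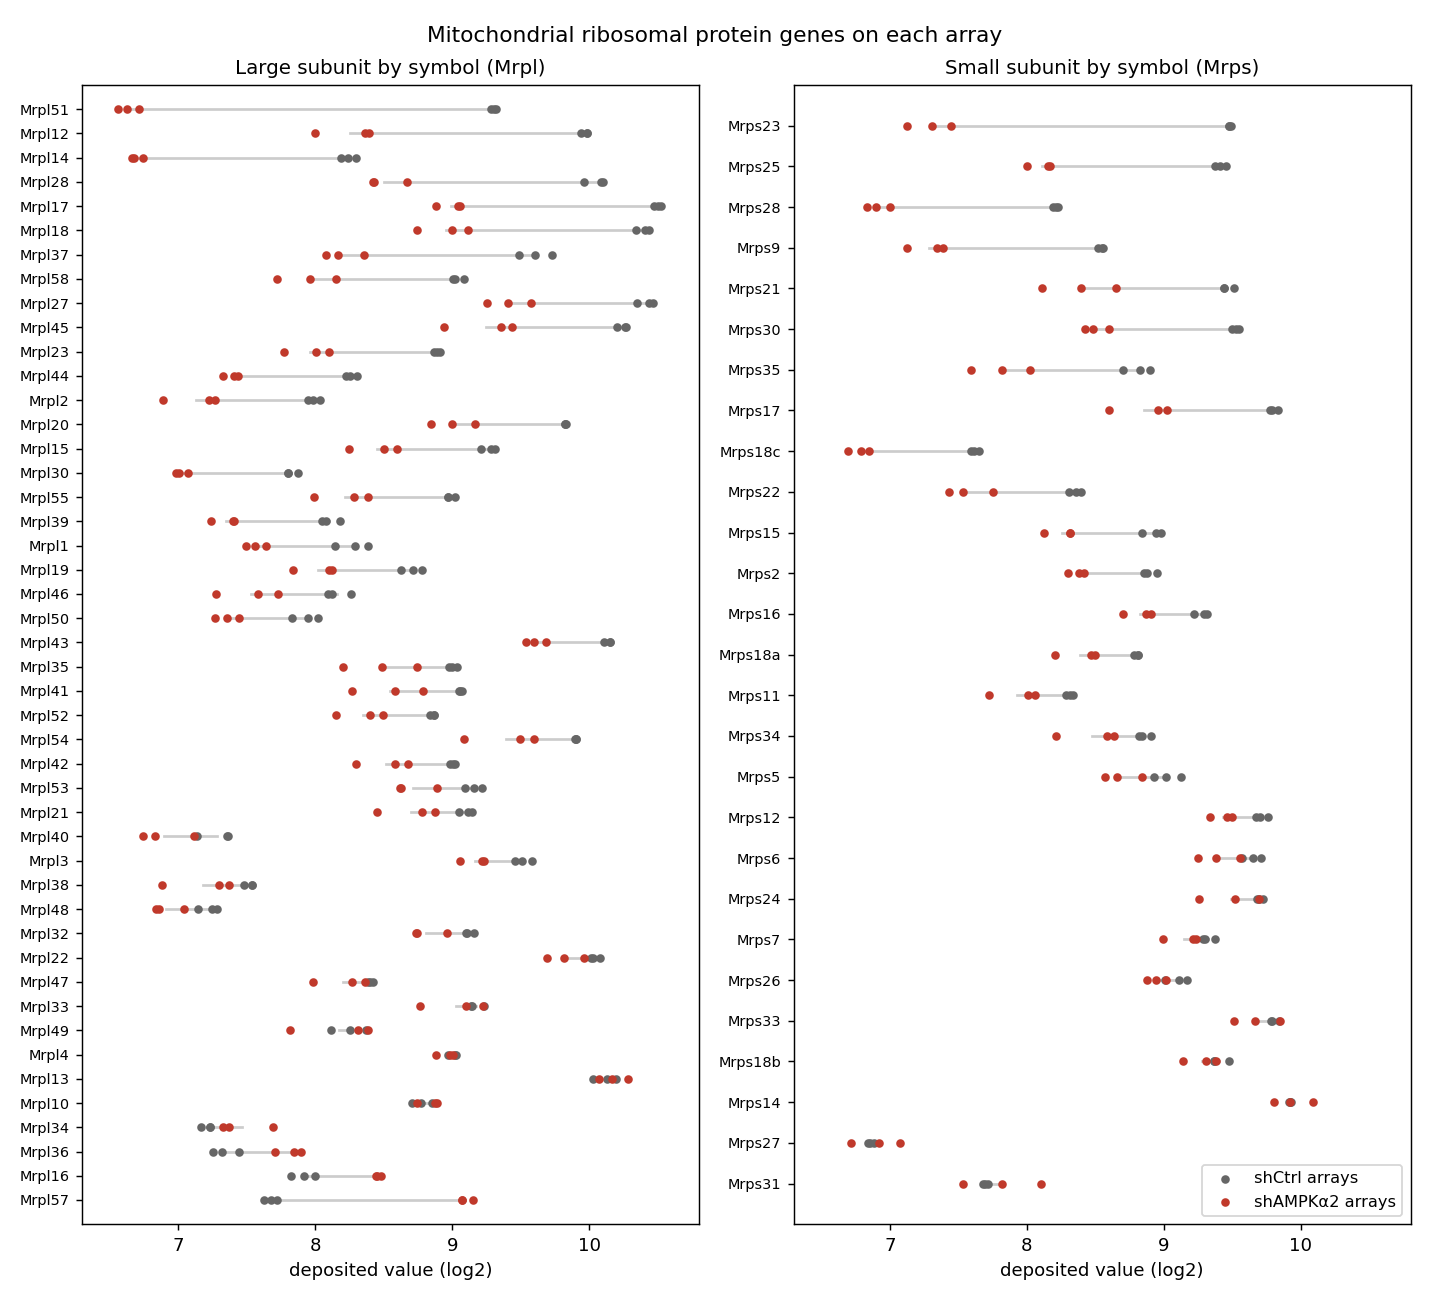
Deposited log2 value (horizontal axis) of each member on each array, with shCtrl arrays in grey and shAMPKα2 arrays in red, 3 points each, and a line between the group means. Members are ordered by their change, from Mrpl51 and Mrps23 at the top, and in 57 of 73 the red points all lie left of the grey ones.

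The members sat at levels where most genes fell. Their shCtrl means ran from 6.86 to 10.50, with a median of 9.01, and the median of all genes was 6.99. Among other genes with a control level of 9 to 10, where 31 members lay, 82.7% fell and the median change was -0.91 on the log2 scale. The 31 members had a median of -0.45. At 8 to 9 the other genes had a median of -0.74 and the 21 members -0.69. At 7 to 8 the values were -0.39 and, for 12 members, -0.32, and at 10 to 11 they were -0.84 and, for 8 members, -1.0. Averaged over the levels of the 73 members, 75.9% of other genes fell and 9.87% rose. The members themselves fell in 75.3% of cases and rose in 5.48%, a share near that of genes of like level. Each member's change was also set against the median change of other genes in its bin of control level, with bins 1 unit wide. By that measure 44 members lay above genes of like level and 29 below, with a median difference of 0.11.

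**Figure D2:**
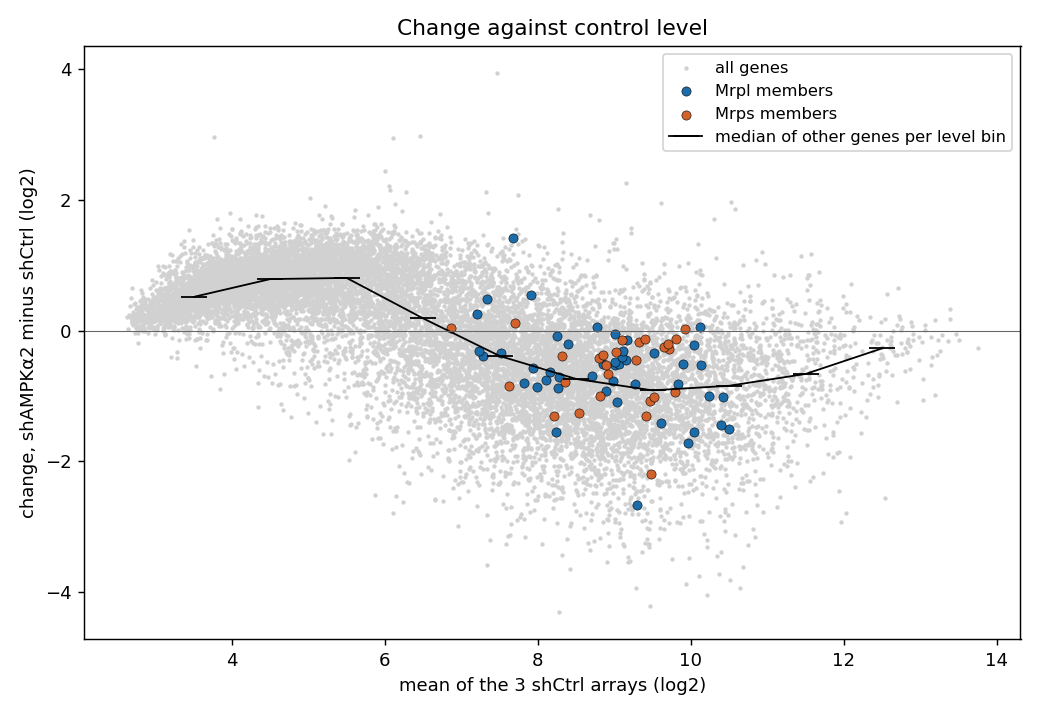
Change (log2, vertical axis) against the mean of the shCtrl arrays (log2, horizontal axis) for all genes (grey), Mrpl members (blue) and Mrps members (orange), with the median of other genes in each bin of control level as a black line. The line runs from 0.81 at levels of 5 to 6 to -0.91 at 9 to 10, and the members scatter on both sides of it.

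The direction of the members as a group depended on how the arrays were scaled. After quantile normalization 22 members fell and 33 rose, with a median of 0.17, where 28.9% of all genes fell and 43.8% rose. After cyclic loess 24 fell and 32 rose, with a median of 0.14, where 31.5% of all genes fell and 40.2% rose. After median centring 63 fell and 3 rose, with a median of -0.73, where 48.2% fell and 35.0% rose. The medians over all genes were 0.16, 0.09 and -0.17 under these 3 scalings. Under all 4 scalings 22 members fell, where 26.4% of all genes did, and 3 rose, where 25.5% did. A further 15 members fell as deposited and rose in both the quantile and the loess scaling. They are Mrpl3, Mrpl21, Mrpl22, Mrpl32, Mrpl42, Mrpl52, Mrpl53, Mrps2, Mrps5, Mrps6, Mrps11, Mrps12, Mrps16, Mrps18a and Mrps34, and their deposited changes were small, from -0.53 (Mrps2) to -0.22 (Mrpl22). The other 18 that fell as deposited had changes from -0.94 (Mrps17) to -0.31 (Mrpl48), with loess changes of -0.23 (Mrps17) to 0.21 (Mrpl41). A shift of all members in 1 direction was thus not shown.

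**Figure D3:**
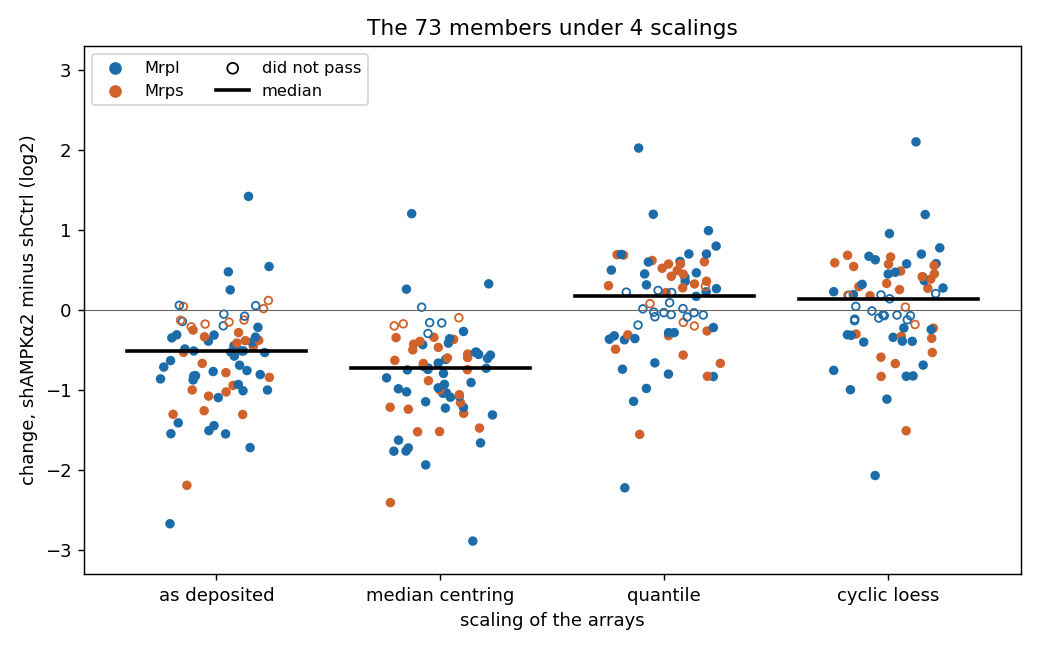
Change (log2, vertical axis) of the 73 members for the deposited values and for median centring, quantile normalization and cyclic loess, with Mrpl in blue, Mrps in orange, open points for members that did not pass, and the median as a bar. The bar lies at -0.51, -0.73, 0.17 and 0.14 from left to right, while the lowest and the highest point stay apart from the rest.

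The members that fell most were of both subunits. Mrpl51, a protein of the large subunit with no bacterial counterpart, read 9.32, 9.31 and 9.28 on the shCtrl arrays and 6.62, 6.71 and 6.56 on the shAMPKα2 arrays. The groups lay far apart, at -2.67 (SE 0.08, limma, adjusted p = 1.98e-09). Quantile normalization gave -2.22 and cyclic loess -2.07. Mrps23, a mitochondria-specific protein of the small subunit, read 9.48, 9.47 and 9.49 on the shCtrl arrays and 7.31, 7.45 and 7.13 on the shAMPKα2 arrays. It fell by 2.19 (SE 0.10) with no overlap, and its change was -1.55 after quantile normalization and -1.51 with cyclic loess. Mrpl12, the counterpart of the bacterial stalk protein L7/L12 that recruits translation factors, read 9.98, 9.94 and 9.98 on the shCtrl arrays. On the shAMPKα2 arrays it read 8.36, 8.39 and 8.0, all lower, and its change of -1.72 (SE 0.11) was -0.98 after quantile normalization and -0.995 with cyclic loess. The second probe set of Mrpl12, at a control level of 6.24, had a change of -0.16 that did not pass.

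Mrpl14, which lies at the interface of the subunits and is bound by the assembly factor Malsu1, read 8.24, 8.19 and 8.29 on the shCtrl arrays and 6.68, 6.74 and 6.66 on the shAMPKα2 arrays. Its change of -1.55 (SE 0.08) was -1.11 after cyclic loess. Mrpl28, a protein of the large subunit kept from bacteria, read 9.96, 10.10 and 10.08 against 8.43, 8.67 and 8.42, a change of -1.54 (SE 0.10) that was -0.83 after cyclic loess. These 5 genes, Mrpl51, Mrps23, Mrpl12, Mrpl14 and Mrpl28, lay furthest below genes of like level, with differences of -0.70 (Mrpl28) to -1.76 (Mrpl51).

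Mrpl17 and Mrpl18, which have bacterial counterparts, were with Mrpl27 the members with the highest control levels. Mrpl17 read 10.47, 10.50 and 10.52 on the shCtrl arrays and 9.06, 9.04 and 8.88 on the shAMPKα2 arrays, a change of -1.51 (SE 0.08). Mrpl18 read 10.34, 10.41 and 10.44 against 9.12, 8.996 and 8.74, a change of -1.44 (SE 0.10). Mrpl27 read 10.47, 10.35 and 10.44 against 9.41, 9.57 and 9.25, a change of -1.01 (SE 0.10). None of the 3 genes had groups that overlapped, and their loess changes were -0.82, -0.75 and -0.34. In the small subunit, Mrps25 read 9.37, 9.46 and 9.41 on the shCtrl arrays and 8.17, 8.15 and 8.0 on the shAMPKα2 arrays, a change of -1.30 (SE 0.08). Mrps28, now placed as the counterpart of bacterial protein S1, read 8.21, 8.23 and 8.19 against 7.001, 6.90 and 6.83, a change of -1.30 (SE 0.08). The groups were apart for both genes, and their loess changes were -0.59 and -0.83.

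The other members that fell under all 4 scalings had changes of -0.81 (Mrpl30) to -1.41 (Mrpl37) as deposited. They include Mrpl58, a peptidyl-tRNA hydrolase built into the large subunit that rescues stalled ribosomes, which fell by 1.09. Mrpl45, which lies at the exit of the peptide tunnel and holds the ribosome at the inner membrane, fell by 0.999, and Mrpl44, which has a ribonuclease III fold, fell by 0.87. After cyclic loess the 3 changes were -0.40, -0.31 and -0.31. The remaining ones are Mrpl2 and Mrpl23 of the large subunit and Mrps9, Mrps21, Mrps35 and Mrps18c of the small subunit, with changes of -0.84 (Mrps18c) to -1.26 (Mrps9). Mrps30, described further down, is the last of the 22. Beyond a change of 1 on the log2 scale, 15 members fell, where 18.6% of all genes did, and 1 rose, where 11.6% did.

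The 4 members that rose were all of the large subunit and had low control levels for this group. Mrpl57, a small mitochondria-specific protein, read 7.72, 7.68 and 7.63 on the shCtrl arrays and 9.07, 9.07 and 9.15 on the shAMPKα2 arrays. With no overlap it rose by 1.42 (SE 0.08, limma, adjusted p = 6.01e-08), by 2.02 after quantile normalization and by 2.10 with cyclic loess, and lay 1.81 above genes of like level. Its second probe set, at a like control level of 7.58, had a change of 0.10 that did not pass, so the rise of Mrpl57 rests on 1 of its probe sets. Mrpl16, the counterpart of bacterial L16, read 7.92, 7.83 and 7.997 against 8.45, 8.48 and 8.45, a rise of 0.54 (SE 0.08) that was 1.19 after cyclic loess. Mrpl36, the counterpart of bacterial L36, read 7.44, 7.32 and 7.25 against 7.84, 7.89 and 7.70, a rise of 0.48 (SE 0.09) that was 0.96 after cyclic loess. Mrpl34 read 7.23, 7.23 and 7.17 against 7.37, 7.69 and 7.32, a change of 0.25 (SE 0.11) that passed narrowly (limma, adjusted p = 0.0429). The change of Mrpl34 did not pass without the second shAMPKα2 array (0.14), without any single shCtrl array, or after median centring (0.04).

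The 14 members that did not pass, Mrpl4, Mrpl10, Mrpl13, Mrpl33, Mrpl47, Mrpl49, Mrps7, Mrps14, Mrps18b, Mrps24, Mrps26, Mrps27, Mrps31 and Mrps33, had changes of -0.21 (Mrps24) to 0.12 (Mrps31). All but Mrps27 had control levels at which most genes fell. Mrpl13, a large subunit protein with a bacterial counterpart, read 10.03, 10.13 and 10.19 on the shCtrl arrays and 10.28, 10.16 and 10.07 on the shAMPKα2 arrays. Mrps14, which lies in the head of the small subunit, read 9.91, 9.92 and 9.92 against 9.92, 10.09 and 9.80. The groups overlapped for both genes, and both lay above genes of like level, by 0.90 (Mrpl13) and 0.93 (Mrps14). After cyclic loess Mrpl13 rose by 0.70 and Mrps14 by 0.68, and 13 of the 14 members rose in that scaling. Mrps27, a pentatricopeptide repeat protein of the small subunit, read 6.85, 6.84 and 6.88 against 6.72, 6.92 and 7.07, a change of 0.04. Its other probe sets fell by 0.85 and 0.33, so the call of Mrps27 depends on the probe set used. The 3 members with the lowest control levels were Mrps27, Mrpl34 and Mrpl48, and Mrpl48 read 7.14, 7.28 and 7.25 against 6.86, 7.04 and 6.84, a change of -0.31 (SE 0.09) that was -0.07 after cyclic loess and did not pass there.

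For some small subunit members the direction turned with the scaling. Mrps12, which shapes the decoding centre, read 9.76, 9.70 and 9.68 on the shCtrl arrays and 9.50, 9.46 and 9.34 on the shAMPKα2 arrays. The groups did not overlap, and its change of -0.28 (SE 0.08, limma, adjusted p = 0.00845) became 0.45 after quantile normalization and 0.42 with cyclic loess, both of which passed. Mrps6, in the platform of the small subunit, read 9.71, 9.57 and 9.65 against 9.38, 9.56 and 9.25, narrowly apart, and its change of -0.25 (SE 0.10, limma, adjusted p = 0.0322) became 0.49 and 0.45. Without array 1 or 3 of either group the change of Mrps6 did not pass, with values of -0.18 to -0.25.

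By symbol, the large subunit had 36 of 46 members lower, 4 higher and 6 that did not pass, and the small subunit 19 of 27 lower, 0 higher and 8 that did not pass. These are 78.3% and 70.4% lower, near the 75.4% and 76.9% of other genes of like level. Of those other genes 10.0% and 9.63% were higher. The medians were -0.53 and -0.41, and the median differences from genes of like level were 0.09 and 0.33. The large subunit's median level was 9.0, 8.98 and 9.01 on the shCtrl arrays and 8.41, 8.48 and 8.18 on the shAMPKα2 arrays. The small subunit's was 9.01, 9.11 and 9.17 against 8.48, 8.60 and 8.21. The difference of the medians, large minus small, was -0.12 for the deposited values, -0.28 with quantile normalization and -0.29 with cyclic loess. With the most variable probe set per gene that difference was 0.00, and it was not tested, since the members of a subunit are not replicates. Of the 22 members that fell in all 4 scalings, 14 of 46 were large and 8 of 27 small.

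Some symbols do not match the place of the protein. Mrps30 and Mrps18a are part of the large subunit in structures of the mammalian ribosome, despite their names. Mrps30 read 9.498, 9.52 and 9.55 on the shCtrl arrays and 8.48, 8.60 and 8.42 on the shAMPKα2 arrays, a change of -1.02 (SE 0.08) that was -0.30 after cyclic loess. Mrps18a read 8.81, 8.81 and 8.79 against 8.50, 8.47 and 8.21, a change of -0.41 (SE 0.10) that became 0.29 after cyclic loess. Both genes had groups that did not overlap. With both counted as large, the medians were -0.53 for 48 large and -0.38 for 25 small members. Split by origin, 43 members with a bacterial counterpart had a median of -0.53 (32 lower, 3 higher) and 30 mitochondria-specific members -0.51 (23 lower, 1 higher). Of other genes of like level 77.1% and 74.3% were lower, near the 74.4% and 76.7% of these members. Their median differences from genes of like level were 0.33 and 0.06.

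Probe sets of the same gene often gave different values. Among the 18 members read by several probe sets, 6 had passing values of both signs. In each of the 6, the falling probe set had the higher control level. For Mrpl37 the probe set used read 9.49, 9.60 and 9.72 on the shCtrl arrays and 8.16, 8.35 and 8.08 on the shAMPKα2 arrays, a change of -1.41. Another probe set of Mrpl37 had -0.72 from a level of 8.04, and the third rose by 0.52 from 5.19. Mrps22 read 8.36, 8.40 and 8.31 against 7.53, 7.75 and 7.43 with the probe set used, a change of -0.78, while its other probe set rose by 0.67 from 4.27. Mrps18c read 7.59, 7.62 and 7.65 against 6.85, 6.69 and 6.79, a change of -0.84, while another rose by 0.61 from 3.87 and the last had -0.07, which did not pass. In both genes the groups of the probe set used were apart. Mrps2 read 8.95, 8.88 and 8.86 against 8.38, 8.42 and 8.30, a change of -0.53, while another probe set rose by 0.42 from 6.36. Mrps15 read 8.84, 8.94 and 8.98 against 8.31, 8.32 and 8.13, a change of -0.67, while the other rose by 0.32 from 3.25. Mrpl40, whose values are given further down, fell by 0.39 and with its other probe set rose by 0.66 from 5.29. Mrps14, which did not pass with the probe set used, had -1.04 with the other from a level of 8.72. The 4 probe sets of Mrpl51 all fell, with changes of -2.67, -1.97, -2.16 and -0.37, and so did both of Mrps9, with -1.26 and -1.25. The 55 members with 1 probe set had 44 lower and 3 higher, with a median of -0.51, and 77.2% of genes of like level were lower.

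Promoter sequences were available from RefSeq (build GRCr8) for 59 of the 73 members, as windows from 250 bases before to 50 after the gene start, and were searched on both strands for letters of factors known to act on mitochondrial genes. The NRF1 letters, GCGCA and GCGC parted by 1 base of any kind, were present in 9 members (15.3%), against 8.63% of 11700 genes of the array. The ETS letters CCGGAAG, which GABP binds, were present in 20 (33.9%, against 15.4%), and the YY1 letters AAGATGGCG in 8 (13.6%, against 3.20%). The GC box GGGCGG was present in 30 (50.8%, against 58.6%). Matches of different sets shared a base in 1 member, between the ETS letters and the GC box. At least 1 of the first 3 was found in 30 members (50.8%, against 24.1%), in 12 of 20 members that fell in all 4 scalings and in 18 of the 39 others. The 250 bases before the start are shown for the member that fell most, for a highly expressed member that fell, and for 2 that rose, with matches to the first 3 sets of letters in capitals. The windows are chr4:159677738-159677987 (plus strand) for Mrpl51, chr1:169575700-169575949 (minus) for Mrpl17, chr15:36086207-36086456 (plus) for Mrpl57 and chr1:31795122-31795371 (minus) for Mrpl36.
Mrpl51: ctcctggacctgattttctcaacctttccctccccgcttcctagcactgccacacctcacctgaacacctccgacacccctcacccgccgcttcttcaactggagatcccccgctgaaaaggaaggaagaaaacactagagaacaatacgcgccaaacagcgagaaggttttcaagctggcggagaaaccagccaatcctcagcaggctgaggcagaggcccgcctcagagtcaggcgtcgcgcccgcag
Mrpl17: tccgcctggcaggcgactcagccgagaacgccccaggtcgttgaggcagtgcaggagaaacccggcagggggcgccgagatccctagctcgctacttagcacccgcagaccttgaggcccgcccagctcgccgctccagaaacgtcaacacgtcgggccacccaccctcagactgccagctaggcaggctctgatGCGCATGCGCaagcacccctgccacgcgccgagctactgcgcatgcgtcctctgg
Mrpl57: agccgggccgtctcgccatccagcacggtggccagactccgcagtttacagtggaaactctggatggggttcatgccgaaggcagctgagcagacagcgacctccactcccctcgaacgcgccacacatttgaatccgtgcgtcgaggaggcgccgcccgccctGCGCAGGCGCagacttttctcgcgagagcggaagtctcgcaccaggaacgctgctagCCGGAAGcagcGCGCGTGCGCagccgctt
Mrpl36: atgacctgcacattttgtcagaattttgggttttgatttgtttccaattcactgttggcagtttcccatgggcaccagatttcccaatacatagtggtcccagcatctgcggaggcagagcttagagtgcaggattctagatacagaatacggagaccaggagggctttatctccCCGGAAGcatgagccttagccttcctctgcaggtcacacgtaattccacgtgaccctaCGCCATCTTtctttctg
Mrpl51 has no match. Mrpl17 holds the NRF1 letters, which there read the same on both strands, and Mrpl57 holds them at separate places on either side of the ETS letters. Mrpl36 holds the ETS letters and, on the opposite strand, those of YY1. Members that fell and members that rose thus both held these letters, and a match describes the window only.

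Many members have a neighbour that starts close by on the other strand. A head-to-head neighbour within 1000 bases was annotated for 18 of 59 members (30.5%), against 14.6% of genes of the array. The start of Mrpl51 lies 50 bases from that of Ncapd2, which encodes a subunit of condensin, the complex that compacts mitotic chromosomes. Ncapd2 read 8.04, 8.10 and 8.14 on the shCtrl arrays and 5.82, 5.44 and 5.41 on the shAMPKα2 arrays, a change of -2.53 (SE 0.11) that was -2.43 after cyclic loess. Hira, a histone chaperone gene 186 bases from Mrpl40, fell by 2.35 (SE 0.10), while Mrpl40 read 7.13, 7.37 and 7.35 against 6.74, 7.12 and 6.83 and fell by 0.39 (SE 0.11). The change of Mrpl40 did not pass after cyclic loess (-0.13). Mrpl46 and Mrps11, whose starts lie 234 bases apart, had changes of -0.63 and -0.38 as deposited and of -0.06 and 0.26 after cyclic loess, of which that of Mrps11 passed. Ppp1r10, which starts 588 bases from Mrps18b, rose by 0.66, while Mrps18b had a change of -0.12 that did not pass. Other neighbours passed in opposite directions. Klc4, 528 bases from Mrpl2, rose by 0.85, while Mrpl2 fell by 0.86. Pnpla7, 996 bases from Mrpl41, rose by 0.57, while Mrpl41 fell by 0.51. Of 13 such pairs with both genes measured, both genes of 5 fell as deposited. Of single genes, 41.5% of all fell, and 75.9% of other genes at the levels of the 73 members. Those are shares of genes and not of pairs, so the count of pairs cannot be set against them. Whether neighbours changed together was not tested.

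Of 5 further proteins of the mitochondrial ribosome that carry other symbols, 5 fell, where 81.5% of genes of like level did, and 4 did in all 4 scalings, against 26.4% of all genes. Aurkaip1, a small subunit protein, fell by 2.38 (SE 0.09), with -1.67 after cyclic loess. Ptcd3, a pentatricopeptide repeat protein of the small subunit, fell by 2.03 (SE 0.09), with -1.34 after cyclic loess. Gadd45gip1, of the large subunit, fell by 1.17 (SE 0.09), and Dap3, which also has a role in cell death, fell by 0.98. Chchd1 had a change of -0.63, which was 0.07 after cyclic loess and did not pass there.

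The factors that work with the ribosome moved both ways. Of 14 mitochondrial translation factors 8 fell and 3 rose, where 48.3% of genes of like level fell and 33.5% rose. The release factor gene Mtrf1l fell by 1.64 (SE 0.13), the formyltransferase gene Mtfmt fell by 1.45 (SE 0.12) and the initiation factor gene Mtif2 fell by 1.17 (SE 0.17). The recycling factor gene Gfm2 rose by 0.76 (SE 0.11) and Gatb, of the complex that makes glutaminyl-tRNA, by 0.75 (SE 0.08). Taco1, which activates translation of a cytochrome oxidase subunit, rose by 0.87 from a low level of 4.18. Of 13 mitochondrial tRNA synthetase genes 8 fell and 1, Sars2, rose (0.72, SE 0.13), where 38.1% of genes of like level fell and 42.1% rose. Yars2, Hars2 and Iars2 had changes of -1.83, -1.31 and -1.14. The synthetase list had a median of -0.44 at a median control level of 6.35, with 11 of 13 below genes of like level and a median difference of -0.62. After cyclic loess its median was -0.36, with 7 lower and 1 higher.

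Of 22 assembly genes 9 fell and 6 rose, with a median of -0.08, where 52.2% of genes of like level fell and 30.4% rose. The GTPase gene Gtpbp10 fell by 1.82 (SE 0.16), Mterf3 fell by 1.61 and Malsu1, whose product binds Mrpl14, fell by 1.27. Mettl17 rose by 0.91 (SE 0.10), and the GTPase gene Eral1 by 0.78 and Rpusd4 by 0.62, both from levels under 6, where most genes rose. Of 15 genes that copy, transcribe or stabilise the mitochondrial genome and its RNA, 13 fell and 1 rose, where 73.2% of genes of like level fell and 11.1% rose. The helicase gene Twnk fell by 1.30, Trmt10c fell by 1.29 and Tfam, which packages mitochondrial DNA, fell by 1.24, and their loess changes were -0.68, -0.75 and -0.52. Polrmt, the mitochondrial RNA polymerase gene, rose by 0.24, a change of 0.02 after median centring that did not pass there. Of 10 regulators of mitochondrial genes 8 fell and 2 rose, where 57.5% of genes of like level fell and 28.5% rose. Gabpa, the DNA-binding subunit of GABP, fell by 1.94 (SE 0.08), Pprc1 fell by 1.73 and Myc fell by 1.54, and their loess changes were -1.31, -1.19 and -0.89. The genes of the other factors whose letters were searched had changes of -1.02 (Nrf1), -0.87 (Yy1) and -0.92 (Sp1, which binds the GC box), and loess changes of -1.13, -0.20 and -0.20, the last of which did not pass. The coactivator genes Ppargc1a and Ppargc1b rose by 1.55 and 1.04, from levels of 4.0 and 6.0. At control levels of 3 to 4, 4 to 5 and 5 to 6, 82.6%, 89.9% and 80.8% of other genes rose, and at 6 to 7 47.8%.

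Subunit genes of the respiratory chain and of the cytosolic ribosome had median changes nearer 0 than the members as deposited. Of 77 subunit genes of oxidative phosphorylation 40 fell and 12 rose, and the median change was -0.32 at a median control level of 10.39. Of genes of like level 70.7% fell and 14.3% rose. Their median difference from genes of like level was 0.36, with 10 of 77 below. After cyclic loess 41 rose and 9 fell. Atp5pf of ATP synthase fell by 1.56, Cox5a of cytochrome oxidase fell by 1.30 and Cyc1, cytochrome c1, fell by 1.29, while the cytochrome oxidase genes Cox8b, Cox4i2 and Cox6a2 rose from levels under 5. Of 41 cytosolic ribosomal protein genes 23 fell and 1 rose, and the median change was -0.20 at a control level of 12.80, near the top of the range. Of genes of like level 57.4% fell and 14.3% rose. Their median difference from genes of like level was 0.05. The genes of like level include this list itself, and the bin from 12 upward held only 117 genes. Nearness to them is thus partly built in. Rpl28 fell by 1.20 from a level of 5.27 and Rps3a and Rpl22 had changes of -0.735 each, while Rpl30 rose by 0.54 from a level of 4.29. After cyclic loess the change of Rpl30 was 0.000157 and did not pass, while that of Rpl28 was -1.77. The differences between these groups and the members were not tested.

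**Figure D4:**
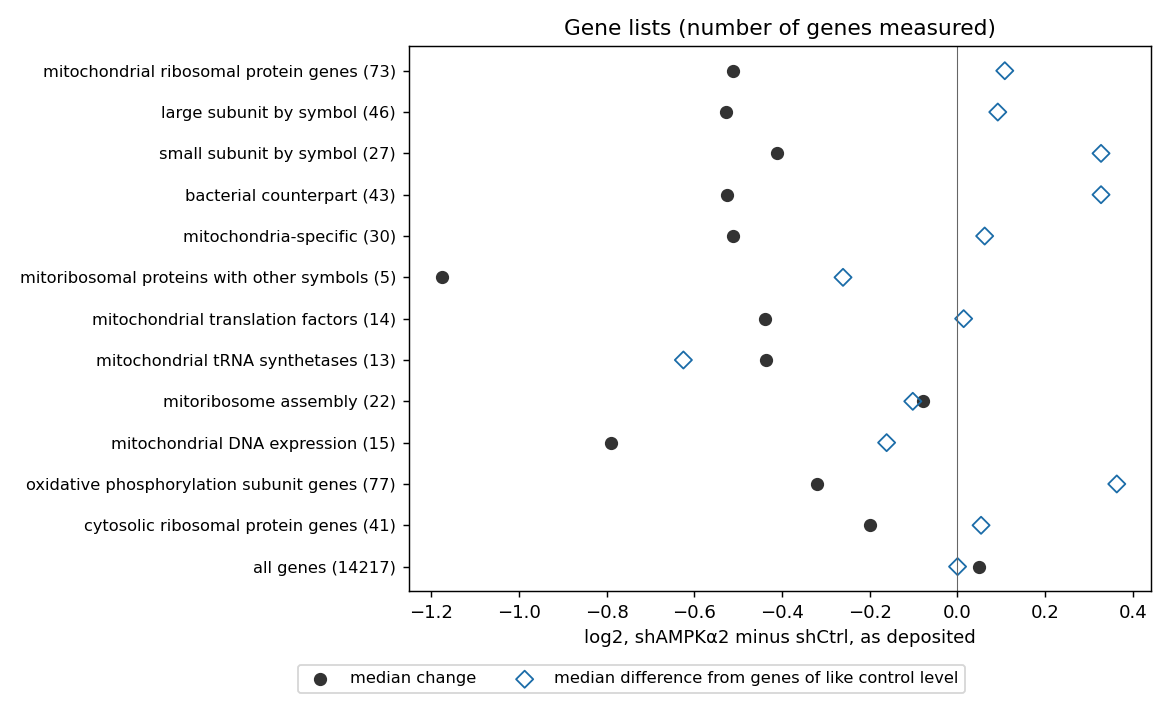
Median change as deposited (filled points) and median difference from genes of like control level (open diamonds), both in log2 units on the horizontal axis, for the members, their subunits and origins, and related lists, with the number of genes in brackets. For the members the 2 medians are -0.51 and 0.11, and for the tRNA synthetases both lie below 0, at -0.44 and -0.62.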

How the data were processed

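Biotin-labelled cRNA was hybridised to Affymetrix rat arrays after preparation with a one-cycle kit from 10 µg of total RNA, which Trizol had released, per the labels' protocols. The authors deposited a log2 value for each probe set on each array. Their background correction, probe summary and normalization, and the signal over background, are not given in the sources used here, and precision is limited by the number of arrays. From 31099 probe sets 57 array controls were removed. Of the remaining ones 20826 had 1 gene, 436 had several and 9780 had none in the platform annotation. RefSeq (GRCr8), joined by Entrez identifier, knew 20758 of the first kind and altered 0 symbols.

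The test was limma 3.58.1 in R 4.3.3 (lmFit, eBayes, 2-sided), fitted to all 14217 genes without filter or covariate and adjusted over them by Benjamini-Hochberg, with a threshold of 0.05. Single probe sets were adjusted over all 31042. Genes of like level were the non-members in the same bin of shCtrl mean, 1 unit wide, with levels under 3 or above 13 joined to the end bins. Genes of the other lists are non-members and so count among their own genes of like level. The fit was tested on simulated arrays in which 200 genes changed. It recovered 98% of changes of 1 on the log2 scale and 50% of those of 0.5, and called 12 unchanged genes. In the data 85.1% of genes passed, so the simulation does not match them in that respect. For 3 arrays against 3 the smallest 2-sided exact permutation p is 0.1, so none was run. The labels call the replicates biological but name no separate cultures, so p-values measure only the spread between these samples, which may be technical. That spread was unequal. The median SD of the members between arrays was 0.043 in shCtrl and 0.155 in shAMPKα2, and that of all genes 0.072 and 0.132. The fit takes 1 variance per gene for both groups, so each SE pools them. Other settings were quantile normalization, cyclic loess (3 iterations), median centring, a floor of 4, dropping the lowest 25% or 50% of genes, probe sets averaged or picked by variance, an intensity trend, robust variance, array weights, a replicate block, each array left out, other thresholds and bins, and subunits by structure.

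Array values are given by rule for the 10 largest rises and falls among members that passed without overlap, the 5 furthest above and below genes of like level, the 3 highest and 3 lowest by control level, those with probe sets of both signs, and Mrpl12, Mrps12, Mrps6, Mrps18a and Mrps30. Mrps36 is not reported here. The 5 mitochondrial ribosomal proteins with other symbols are all named. From the remaining lists the genes named are at most the 3 strongest in each direction that passed. The members and lists were chosen with earlier results of these data known. Head-to-head neighbours, and the genes of factors whose letters were searched, were chosen after values were seen.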

Additional observations from a re-analysis of the deposited data

How the results depend on the processing

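Quantile normalization and cyclic loess turned the median change of the members to 0.17 and 0.14. With the first, 33 members were higher and 22 lower and the large minus small difference was -0.28, and with the second 32 and 24, with -0.29 and a difference from like level of 0.23. Median centring gave a median of -0.73. Without the lowest 25% or 50% of genes, 3317 and 1188 of the genes kept were higher, against 6199 of all 14217 genes. These counts are of smaller sets, so part of the drop is the size of the set. Among the low levels dropped, 89.9% of genes at control levels of 4 to 5 were higher. The most variable probe set gave a difference from like level of 0.26 and a large minus small difference of 6.67e-06. Asking for a change of at least 1 left 1 member higher and 15 lower, and 1654 and 2639 of all genes. Leaving out each array in turn gave a median change of the members of -0.57 to -0.40, the upper value without shAMPKα2 array 3. Their difference from like level was then 0.07 to 0.17, the large minus small difference -0.17 to -0.10, and 3 to 5 members were higher and 52 to 58 lower. With all 6 arrays 4 members were higher and 55 lower, as were 43.6% and 41.5% of all genes. The causes of these shifts were not tested. The authors' normalization is unknown, the range of values was narrower on the shAMPKα2 arrays, and with 3 arrays a group and no signal over background given, small changes cannot be placed more firmly.

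Examples of members that turned sign, each with its quantile and then its loess value, are Mrps11 (0.28, 0.26), Mrps12 (0.45, 0.42), Mrps15 (0.080, 0.037), Mrps18a (0.33, 0.29), Mrps18b (0.62, 0.59), Mrps2 (0.22, 0.18) and Mrps6 (0.49, 0.45), and Mrpl48 after quantile normalization (0.018). Of these values, those of Mrps15 and Mrpl48 did not pass and lay near 0, and Mrps18b did not pass as deposited. With the mean and the most variable probe set, Mrpl40 had 0.14 and 0.66, Mrps14 had -0.51 and -1.04, and Mrps27 had -0.38 and -0.85. Among members that passed in at least 1 of the settings compared, quantile normalization turned the sign of 32 and cyclic loess of 30. Same-numbered arrays had correlations of -0.02, 0.01 and -0.10 between their deviations. With 3 arrays a group, these values cannot tell whether the replicate numbers pair the arrays. With the replicate block 4 members were higher and 54 lower. In the fit without the block 4 were higher and 55 lower, as were 43.6% and 41.5% of all genes.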
